A study of Mus musculus with 21 samples.

Results

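The genes described here are those of glycolysis, glucose uptake and glycogen metabolism, 35 genes named by symbol. They were followed in mouse heart expression arrays, with the brightest of a gene's probe sets taken as its measure after quantile normalization. Of the 35, 32 had a probe set named for the gene alone and 29 passed the filter on low values and were tested, among 13279 tested genes of the series. Gpi1, Eno1 and Pfkfb1 had no probe set named here, and Gapdh was read only from control probe sets and from probe sets that name several genes. Phkg1 (mean log2 level 3.88) and Slc16a3 (4.01) lay below the filter level of 4.349, and Pfkfb3 (4.51) lay just inside it.

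The study crossed a Gata4 genotype with an operation on the aorta and put total RNA of each sample on 1 array, 21 arrays in all. G4D mice were heterozygous for a Gata4 allele that lacks an exon. Transverse aortic constriction (TAC) loads the left ventricle with pressure, and the sham operation left the aorta alone. The groups were G4D TAC (n = 6), G4D sham (n = 5), wild-type TAC (n = 6) and wild-type sham (n = 4), and the labels give neither age, sex, strain background nor the time after the operation. Nothing in the labels says that replicates are separate animals, so the p-values measure the spread between arrays, which may be technical.

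The heart takes up glucose through transporters, phosphorylates it and either stores it as glycogen or breaks it down through glycolysis to pyruvate and lactate. Many steps have a muscle isoform and a more widely used isoform of the same enzyme, and phosphofructokinase is the step at which glycolytic flux is classically controlled. An adult heart draws mainly on fatty acids, and a larger share of glucose use is a known feature of the overloaded heart.

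The source is labelled as cardiac myocytes, and all 8 markers of cardiac muscle cells passed the filter, with a summed log2 level of 15.35 to 15.44 in G4D TAC hearts, 15.39 to 15.51 in G4D sham hearts, 15.41 to 15.48 in wild-type TAC hearts and 15.46 to 15.51 in wild-type sham hearts. All 8 fibroblast markers and all 9 macrophage markers passed it too. Fibroblast markers summed to 13.35 to 14.16 in G4D TAC hearts against 12.72 to 13.25 in G4D sham hearts, and to 13.11 to 13.95 in wild-type TAC hearts against 12.80 to 12.87 in wild-type sham hearts. Macrophage markers summed to 11.54 to 12.04 in G4D TAC hearts against 11.01 to 11.29 in G4D sham hearts, and to 11.48 to 12.33 in wild-type TAC hearts against 11.15 to 11.27 in wild-type sham hearts. After TAC, 4 of 8 fibroblast markers were called higher in each genotype, as were 9 of 9 macrophage markers in G4D and 8 of 9 in wild type. Of the 8 cardiac muscle markers, 2 were called lower with TAC in G4D hearts, Tnni3 (-0.21 ± 0.0685, adjusted p = 0.0319) and Pln (-0.20 ± 0.0698, adjusted p = 0.0468), and 0 in wild-type hearts, where none had an unadjusted p under 0.05. In RNA of mixed cells, fewer cells of a type and less RNA per cell cannot be told apart, and the part of these cells in the results below was not tested. G4D sham replicate 5 stood apart in atrial markers, which summed to 14.68 there against at most 12.84 on any other array, and without it TAC still called 14 of the genes below in G4D hearts, 12 of them the same. The actin signal at the transcript's far end less that at its near end, a measure of RNA quality, was 0.18 to 0.43 in G4D TAC hearts, 0.36 to 0.59 in G4D sham hearts, 0.15 to 0.45 in wild-type TAC hearts and 0.41 to 0.63 in wild-type sham hearts. Neither Gata4 probe set was called in any comparison, with changes of 0.17 ± 0.107 and 0.07 ± 0.266 (log2 ± SE) between G4D and wild type after TAC. Whether they lie inside the deleted exon is not given in the sources used here, so they do not check the genotype.

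Of the 29 tested genes, TAC changed 14 in G4D hearts, among which Pfkp rose most and Fbp2 fell most, and 3 in wild-type hearts. A gene was called when its adjusted p from limma was under 0.05 over all 13279 tested genes. In G4D hearts, 14 of 29 genes (48.3%) were called, 5 higher and 9 lower, where 22.5% of all tested genes were called, 13.2% higher and 9.32% lower. In wild-type hearts, 3 of 29 (10.3%) were called, 1 higher and 2 lower, where 7.35% of all tested genes were called, 5.19% higher and 2.16% lower. The median change of the 29 genes was -0.05 in G4D hearts and -0.02 in wild-type hearts, and that of all tested genes was -0.02 in both, with genes on both sides of 0. TAC and sham hearts did not overlap for 6 of the 29 in G4D (10.1% of all tested genes) and for 7 of the 29 in wild type (10.5% of all tested genes). The difference between the TAC effects of the genotypes was called for 0 of 29 genes by limma (0.0151% of all genes), and 6 had an unadjusted p under 0.05, as did 1110 of all 13279 genes.

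**Figure D1:**
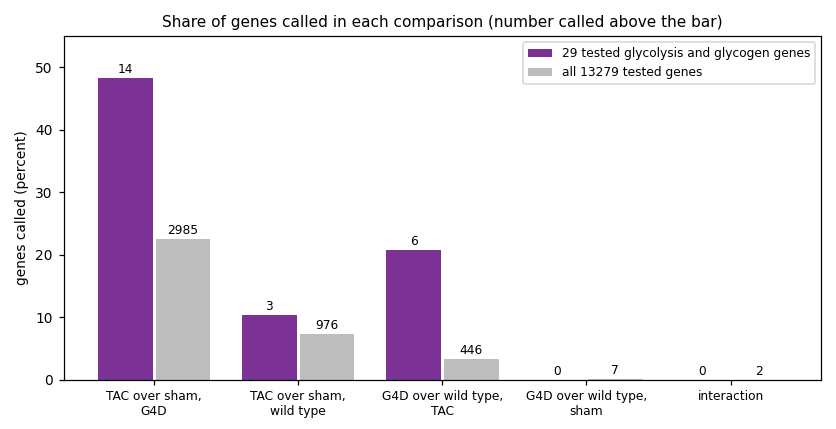
Percent of genes called (adjusted p under 0.05, y axis) in each of the 5 comparisons, for the 29 tested genes of glucose use (purple) and all 13279 tested genes (grey), with the number called above each bar. The purple bar stands at 48.3% against 22.5% for TAC over sham in G4D hearts, at 20.7% against 3.36% for G4D over wild type after TAC, and at 0 in sham hearts and for the interaction.

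The split into higher and lower calls in G4D hearts depended on the scaling of the arrays. With the values as deposited the split was 7 higher and 1 lower, and with median centring it was 5 higher and 1 lower. The median of all tested genes moved to 0.31 with the values as deposited and to 0.10 with median centring, against -0.02 after quantile normalization. Relative to that median, all 23 called changes described below had the same direction with the values as deposited as after quantile normalization. Median centring shifts all genes of an array by the same amount. Relative to the median it must therefore give the same directions as the deposited values, and it is no separate check. In absolute terms Pygm, Pygb and Ldhb were not lower in G4D TAC hearts than in G4D sham hearts with the values as deposited. Of the 23 called changes, 7 were also called with the values as deposited, namely Pfkp, Fbp2, Pgam1, Pgm2 and Ugp2 with TAC in G4D and Pfkp and Fbp2 after TAC. With median centring 9 were called, those 7 together with Ugp2 after TAC and Pgm2 with TAC in wild type.

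**Figure D2:**
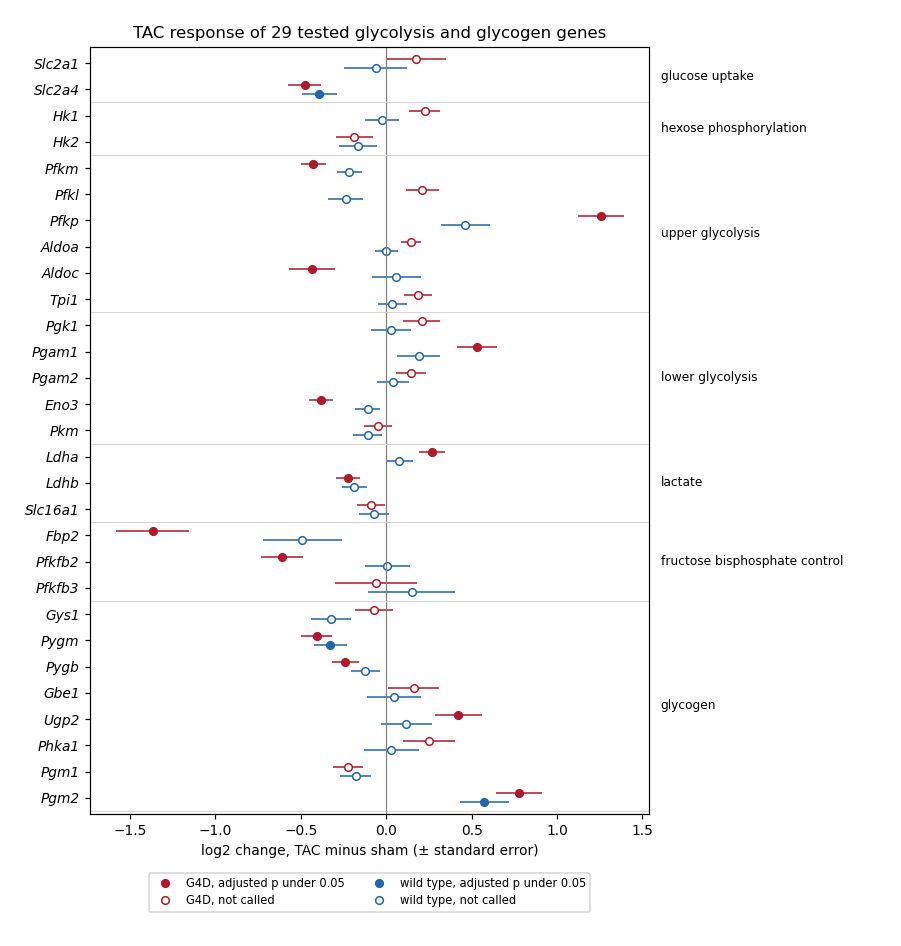
Change in log2 level with TAC (x axis, TAC minus sham, with standard error) of the 29 tested genes, grouped by role, in G4D hearts (red) and wild-type hearts (blue), with filled points for adjusted p under 0.05. Pfkp at 1.26 and Fbp2 at -1.37 lie farthest from 0 in G4D hearts, and the lower values of Pygm, Pygb and Ldhb in G4D hearts turned above 0 with the values as deposited.

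Promoter sequences are shown for 3 of the genes called in G4D TAC hearts both against G4D sham and against wild-type TAC hearts. They are Pfkp and Ldha, which were higher, and Fbp2, which was lower. Ugp2, Pfkfb2 and Eno3 were also called in both comparisons, and their sequences are not shown. RefSeq promoters of build GRCm38.p6, 300 bases around each annotated start, were found for 34 of the 35 genes, with 52 starts in all. Capitals mark ACGTG, the core letters of a hypoxia response element, and a GATA motif, AGATAA or that word with T as its first letter, G as its last letter or both. Both strands were searched, with overlapping matches merged into 1 run. The Pfkp window is chr13:6648722-6649021 on the minus strand, the Fbp2 window is chr13:62858351-62858650 on the minus strand, and the Ldha window is chr7:46845554-46845853 on the plus strand.

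Pfkp: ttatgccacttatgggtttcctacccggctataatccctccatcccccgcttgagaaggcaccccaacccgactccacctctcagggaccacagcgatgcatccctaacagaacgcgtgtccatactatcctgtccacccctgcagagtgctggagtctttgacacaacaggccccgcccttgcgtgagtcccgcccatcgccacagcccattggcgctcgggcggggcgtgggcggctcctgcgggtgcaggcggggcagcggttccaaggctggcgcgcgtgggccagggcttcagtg

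Fbp2: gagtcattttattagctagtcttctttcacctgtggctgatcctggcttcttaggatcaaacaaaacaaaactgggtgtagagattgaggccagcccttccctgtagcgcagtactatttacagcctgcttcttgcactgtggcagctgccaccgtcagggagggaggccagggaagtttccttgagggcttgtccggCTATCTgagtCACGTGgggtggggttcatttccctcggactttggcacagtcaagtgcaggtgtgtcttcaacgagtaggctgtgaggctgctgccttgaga

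Ldha: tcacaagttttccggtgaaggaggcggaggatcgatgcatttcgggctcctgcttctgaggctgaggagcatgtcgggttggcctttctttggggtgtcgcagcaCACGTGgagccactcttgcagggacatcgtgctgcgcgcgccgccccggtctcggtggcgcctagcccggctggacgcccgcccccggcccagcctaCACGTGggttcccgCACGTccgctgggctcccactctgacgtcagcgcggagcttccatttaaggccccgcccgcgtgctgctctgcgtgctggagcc

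The Ldha window held 3 runs with ACGTG, the Fbp2 window held 1 run with ACGTG and 1 GATA motif, and the Pfkp window held neither. The window of a second annotated Ldha start, chr7:46846832-46847131 on the plus strand, held 0 of the ACGTG runs. Among the genes not shown, the Eno3 window held 0 ACGTG runs and 1 GATA motif. The Ugp2 windows held 0 or 1 ACGTG runs and 0 GATA motifs. The Pfkfb2 windows held 0 or 1 ACGTG runs and 0 or 1 GATA motifs. ACGTG stood in 25 of the 52 promoters of the 34 genes (48.1%) and in 19.6% of 32851 promoters of the table. A GATA motif stood in 25% of the 52 and in 29.8% of all promoters. CTA and TAG with 4 bases between them, letters found in sites of MEF2 factors, stood in 3.85% of the 52 and in 3.69% of all, and CATTCC, the M-CAT element of muscle genes, in 13.5% of the 52 and in 14.7% of all. A match describes letters in these windows and is no evidence of binding.

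Glucose uptake was measured through both transporters of the list. Slc2a4, the insulin-responsive transporter GLUT4 of muscle and fat, fell with TAC in both genotypes. Its log2 level (probe set 1415958_at) was 9.85 at the lowest, 9.92 at the median and 10.42 at the highest of 6 G4D TAC hearts, against 10.54, 10.63, 10.51, 10.58 and 10.28 in G4D sham hearts. In 6 wild-type TAC hearts it was 10.03 at the lowest, 10.20 at the median and 10.31 at the highest, against 10.64, 10.65, 10.53 and 10.47 in wild-type sham hearts. The wild-type groups did not overlap, and in G4D the highest TAC heart stood above the lowest sham heart, replicate 5. The change was -0.48 ± 0.0973 (adjusted p = 0.00126) in G4D hearts and -0.39 ± 0.104 (adjusted p = 0.024) in wild-type hearts, which are folds of 0.719 in G4D hearts and 0.762 in wild-type hearts. With the values as deposited neither change was called, at -0.06 in G4D hearts and -0.51 in wild-type hearts, nor with median centring, at -0.27 in G4D hearts and -0.45 in wild-type hearts. The call in wild type was lost without wild-type sham replicate 1 or 2 or wild-type TAC replicate 4 (changes of -0.37 to -0.36, adjusted p of 0.0614 to 0.0778), with the mean of the gene's probe sets (adjusted p = 0.0574) and with the replicate block (adjusted p = 0.124). A second Slc2a4 probe set changed by -0.69 ± 0.201 in G4D hearts. Slc2a1, the basal transporter GLUT1, averaged 7.28 ± 0.336 in G4D TAC hearts and 7.10 ± 0.445 in G4D sham hearts (SD), and 6.76 ± 0.186 in wild-type TAC hearts and 6.82 ± 0.137 in wild-type sham hearts, and this probe set was not called in any comparison. After TAC it differed by 0.52 ± 0.166 between G4D and wild type (adjusted p = 0.102). Of the other Slc2a1 probe sets, 1426599_a_at was called there in a fit of all probe sets (0.52 ± 0.12, adjusted p = 0.0478) and the third was not (0.35 ± 0.129, adjusted p = 0.353).

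The hexokinases, which trap glucose in the cell by phosphorylation, were not called in any comparison. Hk1, the widely expressed form, changed by 0.22 ± 0.0908 with TAC in G4D hearts (adjusted p = 0.0818) and by -0.02 ± 0.0968 in wild-type hearts. Hk2, the insulin-regulated muscle form, changed by -0.19 ± 0.106 in G4D hearts and by -0.17 ± 0.113 in wild-type hearts.

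Phosphofructokinase, the committed step of glycolysis, carried the largest rise among the tested genes of the list, and its isoforms went apart. Pfkp, the platelet-type subunit (1416069_at), read 9.13 at the lowest, 9.37 at the median and 9.90 at the highest of 6 G4D TAC hearts, against 8.03, 7.81, 8.39, 8.41 and 8.25 in G4D sham hearts. Wild-type TAC hearts had 8.29 at the lowest, 8.49 at the median and 8.70 at the highest for Pfkp, against 7.94, 7.91, 8.25 and 8.01 in wild-type sham hearts. The lowest G4D TAC heart stood above every heart of the other groups, and the wild-type groups did not overlap either. Pfkp rose by 1.26 ± 0.134 with TAC in G4D hearts, a fold of 2.39 (adjusted p = 1.55e-06). The change in wild-type hearts was 0.46 ± 0.143 (adjusted p = 0.0525). G4D exceeded wild type by 0.95 ± 0.128 after TAC, a fold of 1.93 (adjusted p = 0.000256), and by 0.15 ± 0.148 in sham hearts (adjusted p = 0.868). The difference between the TAC effects was 0.80 ± 0.195 (adjusted p = 0.169). Both other Pfkp probe sets were higher with TAC in G4D hearts, by 1.14 ± 0.284 and 1.08 ± 0.318, whereas in wild-type hearts they changed by 0.55 ± 0.302 and -0.02 ± 0.339.

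Pfkm, the muscle subunit, went the other way. Its level (1416780_at) was 11.06 at the lowest, 11.16 at the median and 11.32 at the highest of 6 G4D TAC hearts, against 11.69, 11.61, 11.69, 11.51 and 11.50 in G4D sham hearts. Across wild-type TAC hearts Pfkm had 11.22 at the lowest, 11.40 at the median and 11.50 at the highest, against 11.68, 11.65, 11.60 and 11.52 in wild-type sham hearts. TAC and sham hearts did not overlap in either genotype. Pfkm fell in G4D hearts (-0.43 ± 0.0706, adjusted p = 0.000185), a call that was lost with the values as deposited (-0.11) and with median centring (-0.32), and its change was -0.22 ± 0.0753 in wild-type hearts (adjusted p = 0.0917). Pfkl, the liver-type subunit, changed by 0.21 ± 0.0968 in G4D hearts (adjusted p = 0.129) and by -0.24 ± 0.103 in wild-type hearts (adjusted p = 0.194), and the difference between these changes was 0.45 ± 0.141 (adjusted p = 0.324).

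Within an array, the log2 difference between Pfkp and Pfkm, set to a mean of 0 in wild-type sham hearts, removes whatever scales both probe sets alike. It was 1.39 to 2.36 in G4D TAC hearts against -0.22 to 0.48 in G4D sham hearts, and 0.37 to 0.89 in wild-type TAC hearts against -0.16 to 0.23 in wild-type sham hearts. TAC hearts lay above sham hearts in both genotypes without overlap.

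**Figure D3:**
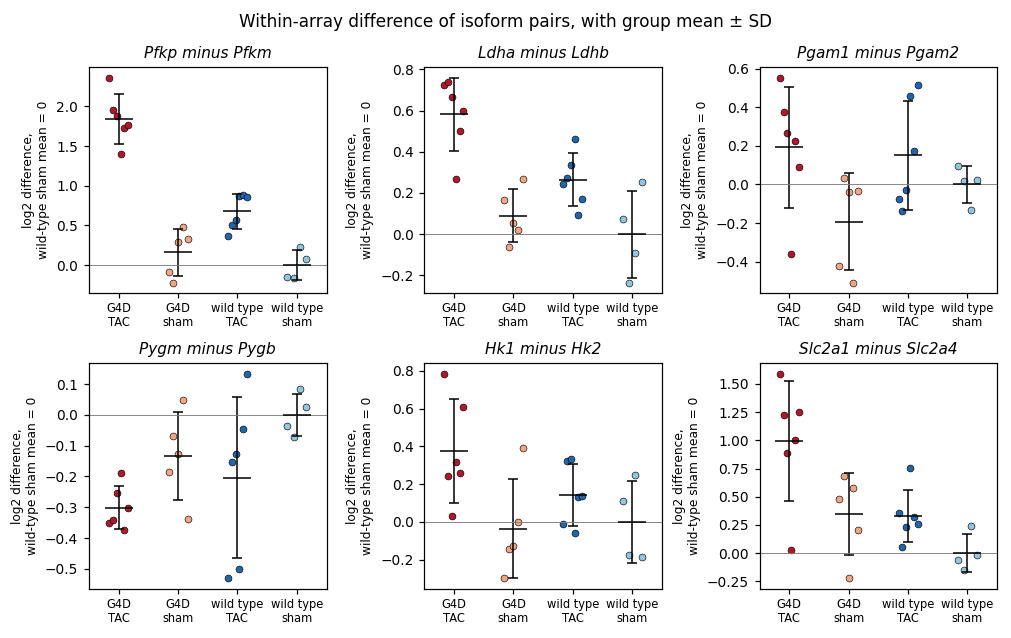
Within-array log2 difference of 6 isoform pairs (y axis, wild-type sham mean set to 0), 1 point per array with group mean and SD, in G4D TAC, G4D sham, wild-type TAC and wild-type sham hearts. Pfkp minus Pfkm separates TAC from sham arrays in both genotypes, while the Pgam, Pyg, Hk and Slc2a pairs overlap between TAC and sham in each genotype. Ldha minus Ldhb meets at the edges in G4D and overlaps in wild type.

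The aldolases cleave fructose bisphosphate. Aldoa, the muscle form, changed by 0.14 ± 0.061 in G4D hearts (adjusted p = 0.0939) and by 0.00 ± 0.065 in wild-type hearts. In a fit of all probe sets its probe set 1433604_x_at was called in G4D hearts (0.19 ± 0.0577, adjusted p = 0.0443), and 1439375_x_at was not (0.18 ± 0.0623, adjusted p = 0.0805). Aldoc, the form best known from brain (1451461_a_at), had 5.10 at the lowest, 5.44 at the median and 5.99 at the highest of 6 G4D TAC hearts, against 6.07, 5.82, 5.84, 5.91 and 6.03 in G4D sham hearts. Its values were 5.43 at the lowest, 5.67 at the median and 5.95 at the highest of wild-type TAC hearts, against 5.53, 5.55, 5.83 and 5.59 in wild-type sham hearts. The TAC and sham groups overlapped in both genotypes. Aldoc fell in G4D hearts (-0.44 ± 0.134, adjusted p = 0.0225), a call that was lost with the values as deposited (-0.14), with median centring (-0.35) and without G4D sham replicate 1 or G4D TAC replicate 1, 3 or 6 (changes of -0.41 to -0.36, adjusted p of 0.0503 to 0.058). In wild-type hearts its change was 0.06 ± 0.143. Tpi1, triosephosphate isomerase, changed by 0.19 ± 0.0806 in G4D hearts (adjusted p = 0.105) and by 0.04 ± 0.0859 in wild-type hearts.

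Lower glycolysis, from triose phosphate to pyruvate, held 1 gene that rose and 1 that fell among 5 tested in G4D hearts, and no call in wild-type hearts. Of all tested genes, 22.5% were called with TAC in G4D and 7.35% in wild type. Pgam1, the widely expressed phosphoglycerate mutase (1426554_a_at), had 8.69 at the lowest, 9.14 at the median and 9.27 at the highest of 6 G4D TAC hearts, against 8.32, 8.52, 8.83, 8.38 and 8.69 in G4D sham hearts. Pgam1 in wild-type TAC hearts was 8.72 at the lowest, 8.97 at the median and 9.28 at the highest, against 8.81, 8.74, 8.79 and 8.79 in wild-type sham hearts. G4D TAC hearts lay mostly above G4D sham hearts, with an overlap at the lowest TAC heart, and the wild-type groups overlapped. The change was 0.53 ± 0.118 in G4D hearts, a fold of 1.45 (adjusted p = 0.00247), and 0.19 ± 0.125 in wild-type hearts (adjusted p = 0.445). Pgam2, the muscle form, changed by 0.15 ± 0.0869 in G4D hearts and by 0.04 ± 0.0926 in wild-type hearts.

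Eno3, the muscle enolase, averaged 11.55 ± 0.118 in G4D TAC hearts and 11.93 ± 0.0826 in G4D sham hearts, and 11.94 ± 0.0891 in wild-type TAC hearts and 12.05 ± 0.0704 in wild-type sham hearts (SD). It fell in G4D hearts with no overlap between groups (-0.38 ± 0.0707, adjusted p = 0.000522), but was not called with the values as deposited (-0.12) or with median centring (-0.32), and its change in wild-type hearts was -0.11 ± 0.0753 (adjusted p = 0.468). Pgk1, phosphoglycerate kinase, changed by 0.21 ± 0.108 in G4D hearts and by 0.03 ± 0.115 in wild-type hearts. Pkm, the muscle pyruvate kinase gene, changed by -0.05 ± 0.0808 in G4D hearts and by -0.11 ± 0.0861 in wild-type hearts. Gapdh, the dehydrogenase often taken as a reference gene, was outside the test. Its 3 control probe sets changed with TAC by 0.13 ± 0.0575, 0.13 ± 0.0614 and 0.05 ± 0.0856 in G4D hearts.

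Of 3 tested lactate genes, 1 rose and 1 fell in G4D hearts, where 22.5% of all tested genes were called. None was called in wild-type hearts, where the share of all tested genes was 7.35%. Ldha, the lactate dehydrogenase subunit favoured where glycolysis runs to lactate, averaged 12.03 ± 0.094 in G4D TAC hearts and 11.76 ± 0.084 in G4D sham hearts, and 11.75 ± 0.0967 in wild-type TAC hearts and 11.67 ± 0.155 in wild-type sham hearts (SD). It rose in G4D hearts (0.27 ± 0.0755, adjusted p = 0.0138), where the groups did not overlap, and changed by 0.08 ± 0.0805 in wild-type hearts. The Ldha call was lost with the values as deposited (0.51, adjusted p = 0.0832) and with median centring (0.30, adjusted p = 0.165). Ldhb, the subunit typical of oxidative muscle, averaged 11.96 ± 0.0899 in G4D TAC hearts and 12.18 ± 0.117 in G4D sham hearts, and 11.99 ± 0.0926 in wild-type TAC hearts and 12.18 ± 0.0651 in wild-type sham hearts (SD). It fell in G4D hearts (-0.22 ± 0.0706, adjusted p = 0.0258) and changed by -0.19 ± 0.0753 in wild-type hearts (adjusted p = 0.157). The Ldhb call was lost without G4D sham replicate 1, 2 or 3 or G4D TAC replicate 1, 2 or 3 (changes of -0.22 to -0.20, adjusted p of 0.0509 to 0.0695), and its change was 0.00 with the values as deposited and -0.20, not called, with median centring. The within-array difference of Ldha and Ldhb was 0.27 to 0.74 in G4D TAC hearts against -0.06 to 0.27 in G4D sham hearts, and 0.10 to 0.46 in wild-type TAC hearts against -0.24 to 0.25 in wild-type sham hearts. The groups met at their edges in G4D and overlapped in wild type. Slc16a1, the lactate transporter MCT1, changed by -0.09 ± 0.0816 in G4D hearts and by -0.07 ± 0.087 in wild-type hearts. A second Slc16a1 probe set went the other way in G4D hearts, by 0.60 ± 0.281 (adjusted p = 0.223 in a fit of all probe sets). Slc16a3, the lactate exporter MCT4, changed by -0.05 ± 0.173 in G4D hearts in the fit without the filter.

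The enzymes that set the level of the fructose bisphosphates held the largest fall among the 29 tested genes. Fbp2, the muscle fructose bisphosphatase that runs against phosphofructokinase (1449088_at), had 4.73 at the lowest, 6.06 at the median and 6.44 at the highest of 6 G4D TAC hearts, against 6.88, 7.51, 7.46, 6.91 and 7.54 in G4D sham hearts. Fbp2 in wild-type TAC hearts was 6.86 at the lowest, 6.997 at the median and 7.21 at the highest, against 7.27, 7.38, 7.78 and 7.58 in wild-type sham hearts. Every G4D TAC heart lay below every heart of the other groups, and the wild-type groups did not overlap. Fbp2 fell in G4D hearts to a fold of 0.387 (change -1.37 ± 0.216, adjusted p = 0.000113), and its change in wild-type hearts was -0.49 ± 0.23 (adjusted p = 0.238). Without G4D TAC replicate 1, the lowest heart, the change in G4D hearts was -1.14 ± 0.144. After TAC, G4D was lower than wild type by a change of -1.12 ± 0.206 (adjusted p = 0.00316), and in sham hearts the difference was -0.24 ± 0.239 (adjusted p = 0.866). The difference between the TAC effects was -0.88 ± 0.316 (adjusted p = 0.397).

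Pfkfb2, the heart form of the enzyme that makes and breaks the activator fructose bisphosphate of phosphofructokinase (1429486_at), had 7.22 at the lowest, 7.27 at the median and 7.604 at the highest of 6 G4D TAC hearts, against 7.72, 8.11, 8.05, 8.30 and 7.52 in G4D sham hearts. Its levels were 7.57 at the lowest, 7.80 at the median and 8.16 at the highest of wild-type TAC hearts, against 7.71, 7.83, 7.82 and 7.87 in wild-type sham hearts. In G4D the highest TAC heart stood above the lowest sham heart, replicate 5, and the wild-type groups lay over each other. Pfkfb2 fell in G4D hearts (-0.61 ± 0.123, a fold of 0.655, adjusted p = 0.00108) and changed by 0.01 ± 0.131 in wild-type hearts (adjusted p = 0.988). The call in G4D was lost with the values as deposited (-0.20) and with median centring (-0.41). After TAC it was lower in G4D than in wild type (-0.48 ± 0.117, adjusted p = 0.0251), a call that was lost without wild-type TAC replicate 5 or G4D TAC replicate 1, 2, 3 or 6 (changes of -0.47 to -0.41, adjusted p of 0.0509 to 0.0641). The difference between the TAC effects was -0.62 ± 0.179 (adjusted p = 0.28). The 3 other Pfkfb2 probe sets had changes of -0.60 ± 0.292, -0.44 ± 0.251 and -0.12 ± 0.0948 in G4D hearts, of the same sign and not called. Pfkfb3, the inducible form, changed by -0.06 ± 0.24 in G4D hearts and by 0.15 ± 0.255 in wild-type hearts.

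**Figure D4:**
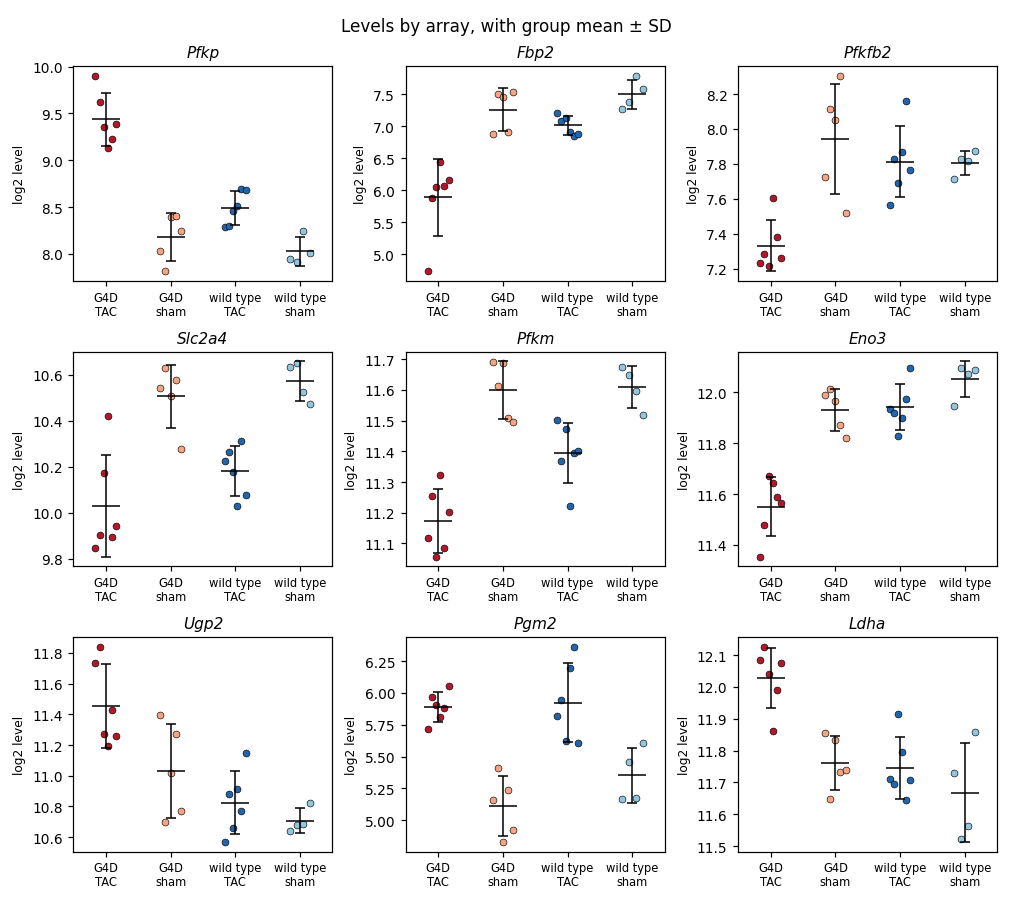
Quantile-normalized log2 level (y axis) of 9 called genes on each array, 1 point per array with group mean and SD, in G4D TAC, G4D sham, wild-type TAC and wild-type sham hearts. For Pfkp all 6 G4D TAC points, from 9.13 to 9.90, lie above all others, and for Fbp2 all 6, from 4.73 to 6.44, lie below all others.

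Of 8 tested glycogen genes, 4 were called in G4D hearts, 2 higher and 2 lower, and 2 in wild-type hearts, 1 in each direction, where 22.5% of all tested genes were called in G4D and 7.35% in wild type. The 8 include Pgm2, described below as acting mainly on phosphopentoses, which was 1 of the 2 higher calls in G4D and the higher call in wild type. Neither lower call in G4D, Pygm nor Pygb, held with the values as deposited or with median centring. Pygm, the muscle glycogen phosphorylase (1448602_at), had 10.31 at the lowest, 10.41 at the median and 10.67 at the highest of 6 G4D TAC hearts, against 10.95, 10.92, 10.85, 10.90 and 10.63 in G4D sham hearts. Its wild-type TAC levels were 10.35 at the lowest, 10.64 at the median and 10.74 at the highest, against 10.81, 10.86, 11.07 and 10.87 in wild-type sham hearts. The wild-type groups did not overlap, and in G4D the highest TAC heart stood above sham replicate 5. Pygm fell in G4D hearts (-0.41 ± 0.0888, adjusted p = 0.00219) and in wild-type hearts (-0.33 ± 0.0946, adjusted p = 0.0384), whereas its change in G4D hearts was 0.00 with the values as deposited and -0.20, not called, with median centring. The wild-type call was lost without any 1 of the 4 wild-type sham hearts or without wild-type TAC replicate 1 or 4 (changes of -0.36 to -0.27, adjusted p of 0.0598 to 0.151).

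Pygb, the brain-type phosphorylase, averaged 10.76 ± 0.0909 in G4D TAC hearts and 10.99 ± 0.101 in G4D sham hearts (SD). It fell in G4D hearts (-0.24 ± 0.0806, adjusted p = 0.037), whereas its change was 0.14 with the values as deposited and -0.07, not called, with median centring, and it changed by -0.12 ± 0.0859 in wild-type hearts. That call was lost without G4D sham replicate 1, 2, 3 or 5 or G4D TAC replicate 1, 3, 5 or 6 (changes of -0.25 to -0.20, adjusted p of 0.0513 to 0.107). A regulatory and a catalytic subunit of the kinase that activates phosphorylase were measured. Phka1, the muscle regulatory subunit, changed by 0.25 ± 0.151 in G4D hearts and by 0.03 ± 0.161 in wild-type hearts, and was not called. Phkg1, the muscle catalytic subunit, was below the filter, and in the fit of all 18193 genes without it the change was -1.89 ± 0.313 in G4D hearts (adjusted p = 0.000359) and -0.999 ± 0.334 in wild-type hearts (adjusted p = 0.106). Its level (1422315_x_at) was 1.99 at the lowest, 2.73 at the median and 3.66 at the highest of 6 G4D TAC hearts, against 4.25, 5.04, 4.18, 4.33 and 5.35 in G4D sham hearts. Wild-type TAC hearts had Phkg1 levels of 2.92 at the lowest, 3.89 at the median and 4.30 at the highest, against 5.02, 4.57, 4.92 and 4.60 in wild-type sham hearts. TAC and sham hearts did not overlap in either genotype for this probe set at these low levels. The other Phkg1 probe set, 1425164_a_at, overlapped in G4D, at 0.04 to 3.94 in TAC hearts against 3.82 to 5.485 in sham hearts. It did not overlap in wild type, at 1.66 to 4.06 against 4.38 to 5.05. In a fit of all probe sets it changed by -2.55 ± 0.584 in G4D hearts (adjusted p = 0.00827) and by -1.41 ± 0.623 in wild-type hearts (adjusted p = 0.361).

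Ugp2 makes UDP-glucose, the sugar donor for glycogen. Its level (1451742_a_at) was 11.19 at the lowest, 11.35 at the median and 11.84 at the highest of 6 G4D TAC hearts, against 11.40, 10.70, 11.02, 11.27 and 10.77 in G4D sham hearts. For Ugp2, wild-type TAC hearts had 10.57 at the lowest, 10.82 at the median and 11.15 at the highest, against 10.64, 10.68, 10.69 and 10.83 in wild-type sham hearts. All 6 G4D TAC hearts stood above all wild-type hearts and overlapped with G4D sham hearts. Ugp2 rose in G4D hearts (0.42 ± 0.139, adjusted p = 0.0335) and changed by 0.12 ± 0.149 in wild-type hearts (adjusted p = 0.736). The rise in G4D was no longer called without G4D sham replicate 2, 3 or 5 or G4D TAC replicate 1, 2 or 5 (changes of 0.34 to 0.43, adjusted p of 0.0503 to 0.101). After TAC, G4D exceeded wild type by 0.63 ± 0.133, a fold of 1.55 (adjusted p = 0.0098), and the 4 other Ugp2 probe sets gave 0.64 to 0.82 there. In sham hearts the difference was 0.32 ± 0.155 (adjusted p = 0.612), and the 4 other probe sets gave 0.34 to 0.44, not called. The difference between the TAC effects was 0.31 ± 0.204 (adjusted p = 0.734).

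Pgm2, a phosphoglucomutase relative that in humans acts mainly on phosphopentoses (1453283_at), was the gene that rose in both genotypes. It had 5.72 at the lowest, 5.90 at the median and 6.05 at the highest of 6 G4D TAC hearts, against 5.16, 5.41, 4.83, 5.24 and 4.92 in G4D sham hearts. Among wild-type TAC hearts Pgm2 was 5.60 at the lowest, 5.88 at the median and 6.36 at the highest, against 5.17, 5.45, 5.17 and 5.61 in wild-type sham hearts. The G4D groups did not overlap, and in wild type the lowest TAC heart and the highest sham heart met. The change was 0.78 ± 0.135 in G4D hearts (adjusted p = 0.000287) and 0.57 ± 0.144 in wild-type hearts (adjusted p = 0.0178), and the wild-type call was lost without wild-type sham replicate 1 or 3 (change of 0.51, adjusted p of 0.0702 to 0.0742). Pgm1, the phosphoglucomutase that links glucose phosphate to glycogen, changed by -0.22 ± 0.0856 in G4D hearts (adjusted p = 0.0657) and by -0.18 ± 0.0912 in wild-type hearts. Gys1, the muscle glycogen synthase, changed by -0.07 ± 0.109 in G4D hearts and by -0.32 ± 0.116 in wild-type hearts (adjusted p = 0.105), where the groups did not overlap. Gbe1, the branching enzyme, changed by 0.16 ± 0.149 in G4D hearts and by 0.04 ± 0.158 in wild-type hearts.

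The genotypes were then compared within each operation. In sham hearts, 0 of 29 genes were called by limma between G4D and wild type, where 0.0527% of all tested genes were called, 0.0301% higher and 0.0226% lower. The differences ran from -0.24 to 0.32, with 95% intervals that reached at most -0.74 for Fbp2 and 0.84 for Pfkfb3, so differences within those bounds were not excluded. Aldoc (0.31 ± 0.148) and Ugp2 (0.32 ± 0.155) had an unadjusted p under 0.05, 2 of the 29 genes against 1074 of all 13279. Gys1 was the gene whose groups did not overlap, at -0.19 ± 0.12 (adjusted p = 0.728), and 2.9% of all tested genes did not overlap in sham hearts.

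After TAC, 6 of 29 genes (20.7%) were called between G4D and wild type, where 3.36% of all tested genes were called. G4D was higher for Pfkp (0.95 ± 0.128), Ugp2 (0.63 ± 0.133) and Ldha (0.28 ± 0.072, adjusted p = 0.03), and 2.1% of all tested genes were called higher. It was lower for Fbp2 (-1.12 ± 0.206), Pfkfb2 (-0.48 ± 0.117) and Eno3 (-0.39 ± 0.0674, adjusted p = 0.00211), and 1.26% of all tested genes were called lower. G4D TAC and wild-type TAC hearts did not overlap for 4 of the 29, Pfkp, Ugp2, Fbp2 and Eno3, against 2.59% of all tested genes. The Ldha call was lost without wild-type TAC replicate 1, 2, 5 or 6 or G4D TAC replicate 1, 2, 3, 5 or 6 (changes of 0.26 to 0.29, adjusted p of 0.0529 to 0.0778). The calls of Ldha, Pfkfb2 and Eno3 were lost under both other scalings, with changes of 0.36, -0.31 and -0.27 with the values as deposited and of 0.24, -0.43 and -0.39 with median centring, and that of Ugp2 was lost with the values as deposited (0.74, adjusted p = 0.139). This comparison shares its G4D TAC arrays with TAC over sham in G4D, so the values of the same gene in both are not independent. Acta2, smooth muscle actin, was the 1 of 5 smooth muscle and pericyte markers called higher in G4D than in wild type after TAC (0.81 ± 0.197, adjusted p = 0.0251), and 0 of 8 fibroblast, 0 of 9 macrophage and 0 of 8 cardiac muscle markers were called by limma, with 2 fibroblast markers and 1 cardiac muscle marker at an unadjusted p under 0.05. In sham hearts the differences of the 5 smooth muscle and pericyte markers reached 0.84, with 0 called and 1 at an unadjusted p under 0.05. The differences between the TAC effects of the genotypes ran from -0.23 to 0.01 for these 5 markers, with 0 called. The Acta2 difference can therefore not be read as one that arose with TAC. The part of these cell types in the differences was not tested.

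The TAC effects of the genotypes differed with an unadjusted p under 0.05 for 6 of the 29 genes. They were Pfkp (0.80 ± 0.195) and Pfkl (0.45 ± 0.141) with positive differences, and Fbp2 (-0.88 ± 0.316), Pfkfb2 (-0.62 ± 0.179), Aldoc (-0.50 ± 0.195) and Eno3 (-0.27 ± 0.103) with negative ones. Their adjusted p ran from 0.169 to 0.455, so a larger TAC effect in G4D was not established by this test for any of the 29 genes.

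Further genes of glucose use gave a wider view of the same pathways. Of 57 other genes, 44 were tested, and 13 of them (29.5%, against 22.5% of all tested genes) were called with TAC in G4D hearts, 6 higher and 7 lower, and 2 (4.55%, against 7.35%) in wild-type hearts. The split in G4D hearts was 6 higher and 1 lower with the values as deposited, and 7 higher and 1 lower with median centring. Gyg, glycogenin, the protein primer of glycogen, averaged 11.14 ± 0.212 in G4D TAC hearts and 10.50 ± 0.195 in G4D sham hearts, and 10.27 ± 0.0565 in wild-type TAC hearts and 10.19 ± 0.141 in wild-type sham hearts (SD). It rose by 0.64 ± 0.102 in G4D hearts (adjusted p = 0.000119), and after TAC it was higher in G4D than in wild type by 0.86 ± 0.0969 (adjusted p = 2.3e-05). Ppp1r3c, a subunit that targets protein phosphatase to glycogen, rose by 0.55 ± 0.121 in G4D hearts (adjusted p = 0.00245; 0.0515 with the mean of its probe sets) and exceeded wild type after TAC by 0.43 ± 0.115 (adjusted p = 0.0437). That last call did not hold with the values as deposited, with median centring or without any 1 of wild-type sham replicate 4, wild-type TAC replicates 1, 2, 3, 4 and 6, G4D sham replicate 4 and G4D TAC replicates 1, 2, 3 and 5 (changes of 0.38 to 0.46 over all left-out arrays). The muscle and liver forms of that targeting subunit went the other way in G4D hearts, Ppp1r3a by -0.53 ± 0.149 (adjusted p = 0.0133) and Ppp1r3b by -0.48 ± 0.108 (adjusted p = 0.00255), and with the values as deposited these changes were -0.12 and -0.09 and not called, nor were they with median centring, at -0.33 and -0.29.

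Among regulators, Klf15, a transcription factor known to raise Slc2a4 in muscle, averaged 6.66 ± 0.435 in G4D TAC hearts and 7.86 ± 0.405 in G4D sham hearts, and 7.03 ± 0.224 in wild-type TAC hearts and 7.498 ± 0.149 in wild-type sham hearts (SD). It fell in G4D hearts (-1.20 ± 0.191, adjusted p = 0.000119). Hif1a, the oxygen-regulated factor that binds hypoxia elements, rose by 0.57 ± 0.139 in G4D hearts (adjusted p = 0.00527), a call that was lost with the mean of the gene's probe sets (0.32, adjusted p = 0.153). In wild type it also averaged higher after TAC, at 8.88 ± 0.152 against 8.47 ± 0.231 in sham hearts (SD), and was not called. Gfpt1, the first enzyme of the hexosamine branch, rose in G4D hearts by 0.44 ± 0.103 (adjusted p = 0.00405). Ldhd, the mitochondrial dehydrogenase of the other lactate isomer, fell in G4D hearts (-0.69 ± 0.155, adjusted p = 0.00278) and in wild-type hearts (-0.61 ± 0.165, adjusted p = 0.0276). Neither Ldhd call held with the values as deposited (-0.33 in G4D hearts, -0.67 in wild-type hearts) or with median centring (-0.53 in G4D hearts, -0.60 in wild-type hearts). Pgd, phosphogluconate dehydrogenase of the pentose phosphate pathway, was the other call in wild-type hearts, higher by 0.31 ± 0.0903 (adjusted p = 0.0397). The Ldhd call in wild type did not hold without wild-type sham replicate 1, 2 or 3 or wild-type TAC replicate 4 or 5. The Pgd call did not hold under either other scaling, nor without wild-type sham replicate 1, 3 or 4, wild-type TAC replicate 1, 4, 5 or 6 or G4D TAC replicate 5. Over all left-out arrays the changes of Ldhd ran from -0.65 to -0.50 and those of Pgd from 0.25 to 0.40. In the genotype comparisons, 0 of 44 were called in sham hearts, against 0.0527% of all tested genes. Gyg and Ppp1r3c were the 2 called after TAC (4.55%, against 3.36% of all tested genes).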

How the data were processed

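Expression was measured on 21 single-channel arrays, 1 per sample, grouped by title. The authors made the deposited log2 value of each probe set with PLIER, per the submitters' processing notes. That its scale is log2 was read from the range of the values, and the background correction and normalization are not given in the sources used here. Deposited array medians ran from 4.31 to 5.33, and precision rests on how many arrays a group has.

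Of 45101 probe sets, 64 were controls, 34945 carried 1 gene symbol of the platform annotation, 932 several and 9160 none. Values were quantile normalized here, and single-symbol probe sets with a mean at or above the 40th percentile (4.349) were kept, the brightest for each gene, so the level that decides the filter can come from the group where a gene is high. The 4 group means were fitted together with limma 3.58.1 (R 4.3.3) on 17 degrees of freedom (20.7 after moderation), with 5 two-sided comparisons and Benjamini-Hochberg adjustment over all 13279 tested genes. Changes are log2 differences with their standard error, and the second Phkg1, Slc16a1, Gapdh and Gata4 values come from fits of all genes or all probe sets without the filter. The procedure was tested on simulated data.

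Alternatives were the values as deposited, median centring, no filter, a 60th percentile filter, the mean of a gene's probe sets, a replicate block, only the groups compared, an intensity trend, and leaving out each array. Every gene of the list is named. Genes called with a change of at least 0.4 have the value of each sham array and the lowest, median and highest value of each TAC group. Of the other genes of glucose use, those with the 4 largest called changes in each direction of a TAC comparison are named. The genes and lists were chosen with earlier results of these data known.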

Additional observations from a re-analysis of the deposited data

Results flagged for a closer look

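Of 116 gene and group combinations of the 29 tested genes, 3 (2.59%) held an array that lay far from the rest of its group, where chance gives about 1 in 20. Fbp2 was 4.73 in G4D TAC replicate 1, the lowest of 6, with the next at 5.88. Eno3 was 11.95 in wild-type sham replicate 1, the lowest of 4, with the next at 12.07. Slc16a1 was 10.37 in wild-type sham replicate 4, the lowest of 4, with the next at 10.54.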

How the results depend on the processing

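The count of called genes moved most with the scaling. With TAC in G4D hearts, 14 calls became 8 with the values as deposited and 6 with median centring, and the changes of Ldhb (0.0052), Pygm (0.0043) and Pygb (0.14) turned positive with the values as deposited, as did that of Phka2 (0.14) among the other genes of glucose use. With TAC in wild-type hearts, 3 calls became 0 with the values as deposited, 1 with median centring and 5 with an intensity trend. After TAC, 6 calls between G4D and wild type became 2 and 3 under those scalings. Over all genes, 976 calls with TAC in wild type became 95 with the values as deposited and 389 with median centring, and 446 after TAC became 64 and 184. The cause was not tested. For TAC in G4D, 2985 genes were called in the main fit, and the counts over all genes under the other scalings are not given here. The fall from 14 calls is therefore not set against all genes here. Leaving out 1 array gave 0 to 5 calls in wild-type hearts, 10 to 15 in G4D hearts, 4 to 8 after TAC, 0 in sham hearts and 0 for the interaction. The wild-type count was 0 without wild-type sham replicate 1, 1 without wild-type sham replicate 2 or 3 or wild-type TAC replicate 4, and 5 without G4D TAC replicate 1 or 4. Over all genes these gave 559 to 1149 calls in wild type, 248 to 647 after TAC, 1 to 27 in sham hearts (7 with all arrays) and 1 to 29 for the interaction (2 with all arrays, 0 with the mean of a gene's probe sets). Deviations from group means correlated with a mean r of -0.04 over 28 pairs of arrays with the same replicate number and 0.01 over 136 pairs with different numbers. Single pairs ran from -0.36 to 0.42 with the same number and from -0.51 to 0.53 with different numbers. With that spread, the mean r does not settle whether replicate numbers pair the samples. The replicate block gave 1 call in wild-type hearts, 10 in G4D hearts and 5 after TAC, with 488 and 274 calls over all genes in wild type and after TAC. Of 23 called changes, 6 kept their call under every setting: Pfkp, Fbp2, Pgam1 and Pgm2 with TAC in G4D, and Pfkp and Fbp2 after TAC.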
